A study of Mus musculus with 15 samples.

Results

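The STAT transcription factors Stat3, Stat4, Stat5a, Stat5b and Stat6 and the feedback inhibitors Socs1, Socs2, Socs3 and Cish were followed in mouse CD8+ T cells, as 9 genes taken by name from the 55536 annotated genes of the count table. They were chosen as a gene family, with earlier results of these data known. RNA was sequenced in 15 libraries, 5 for each of 3 groups. The study refers to the libraries of a group both as mice and as samples, and the labels tie no library to an animal, so p-values measure the spread between these libraries. Cells of all groups came from OT-1 Tg C57BL/6J mice, whose T cells carry a transgenic receptor for an ovalbumin peptide. Naive cells were taken from such mice without transfer. For the Ag group, OT-I cells were transferred into wild-type C57BL/6J recipients that received the peptide antigen with a control antibody. For the Ag+Costim group, recipients received the antigen with agonist antibodies to OX40 and CD137 (4-1BB), which are costimulatory receptors of activated T cells. Transferred cells were sorted from spleen and lymph nodes at day 4 per the labels, whereas the methods give a time somewhat short of day 4. Per the methods, the OT-I mice also lacked Rag1 or Rag2, whereas recipients kept their own lymphocytes, and mice of both sexes were used. The age behind each library is not given in the sources used here.

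Cytokine receptors lack a kinase of their own and signal through bound JAK kinases, which phosphorylate STAT proteins that then enter the nucleus and switch on genes. Among those genes are the SOCS family and Cish, whose proteins bind the receptors or the kinases and dampen the same signal. In CD8+ T cells, STAT5 proteins carry signals of IL-2, IL-7 and IL-15, Stat4 those of IL-12, Stat6 those of IL-4, and Stat3 those of IL-6, IL-10 and IL-21.

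Total counts per library ranged from 4865952 (Ag 3) to 25280667 (Naive 3). They were 38.2% to 46.8% of sequenced reads in Naive and 51.9% to 52.7% in Ag+Costim. Within Ag they were 37.4%, 16.9% and 44.3% in Ag 1, 3 and 4 but 52.4% and 53.6% in Ag 2 and 5. Genes with a count numbered 30152 to 33853 in Naive and 23891 to 25410 in Ag+Costim. They numbered 31845 to 44408 in Ag 1, 3 and 4, and 21705 and 20949 in Ag 2 and 5. The part of these differences in the results below was not tested. All 6 genes that define CD8+ T cells were counted in every group, at a summed 3926 to 7573 CPM (counts scaled to library size by TMM). Markers of other cells were not absent, and of 7 B cell markers tested 6 were called higher in Ag vs Naive and 1 in Ag+Costim vs Naive, where 3 of the 6 CD8+ T cell genes and, of the markers tested, 2 of 3 of natural killer cells, 2 of 7 of myeloid cells, 1 of 3 of dendritic cells and 1 of 3 of CD4+ T cells were called lower. Over all genes tested, 3.05% were called higher in Ag vs Naive, and 21.0% higher and 23.6% lower in Ag+Costim vs Naive. The 8 B cell markers summed to 1336 CPM in Ag 3, with 42.7 to 126 CPM in Naive, 91.1 to 1336 in Ag and 128 to 238 in Ag+Costim. The 8 myeloid markers summed to 1010 CPM in Naive 5, with 12.3 to 1010 CPM in Naive, 48.4 to 170.3 in Ag and 64.9 to 158 in Ag+Costim, and the 6 erythroid markers to 52.3 to 151 CPM in Naive, 15.02 to 1311 in Ag, with Ag 3 highest, and 4.39 to 37.0 in Ag+Costim. None of the 5 erythroid markers tested was called by edgeR in any comparison, although all 5 were lower at an unadjusted p under 0.05 in Ag+Costim than in Ag and than in Naive (median log2 fold change -4.25 and -2.54). Of all genes, 26.8% and 55.7% had such a p in either direction in these 2 comparisons. None of these lists had a gene without a count in any group. Lane 2 of the sequencer carried the Ag libraries with Ag+Costim 1, 2 and 3, and lane 3 carried the Naive libraries with Ag+Costim 4 and 5. Ag and Naive never shared a lane, so that lane and group cannot be told apart between them. In bulk samples, fewer cells that express a gene and less RNA of it per cell cannot be told apart.

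All 9 genes passed the filter on low counts, and their levels spanned a wide range. Compared per kilobase of merged exons, Stat4 was the most abundant in every group, at 79.1 ± 3.89 CPM per kilobase in Naive libraries, 86.7 ± 5.99 in those of Ag and 95.7 ± 5.64 in those of Ag+Costim (SD, n = 5). Stat6 came next in each group, at 66.2 ± 11.2, 46.9 ± 8.80 and 53.4 ± 6.31 CPM per kilobase in the same order. In Naive libraries Stat5b (30.4 ± 5.16), Socs3 (28.9 ± 12.6) and Stat3 (28.4 ± 6.95) were neighbours whose levels per kilobase differed by less than their SDs, followed by Socs1 (12.7 ± 3.07) and Stat5a (10.1 ± 1.07). In Ag+Costim libraries Stat5b (29.3 ± 1.67) and Stat3 (24.0 ± 2.69) stayed near their Naive levels per kilobase, while Socs3 (4.80 ± 1.61) and Socs1 (4.41 ± 1.31) stood below Stat5a (12.3 ± 0.324). Cish and Socs2 were the lowest in every group, under 1 CPM per kilobase on average. Merged exons include those of transcripts with few or no counts, 9527 bases for Stat3 and 7133 for Stat5a. The order of genes close in level therefore depends on the length used.

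**Figure D1:**
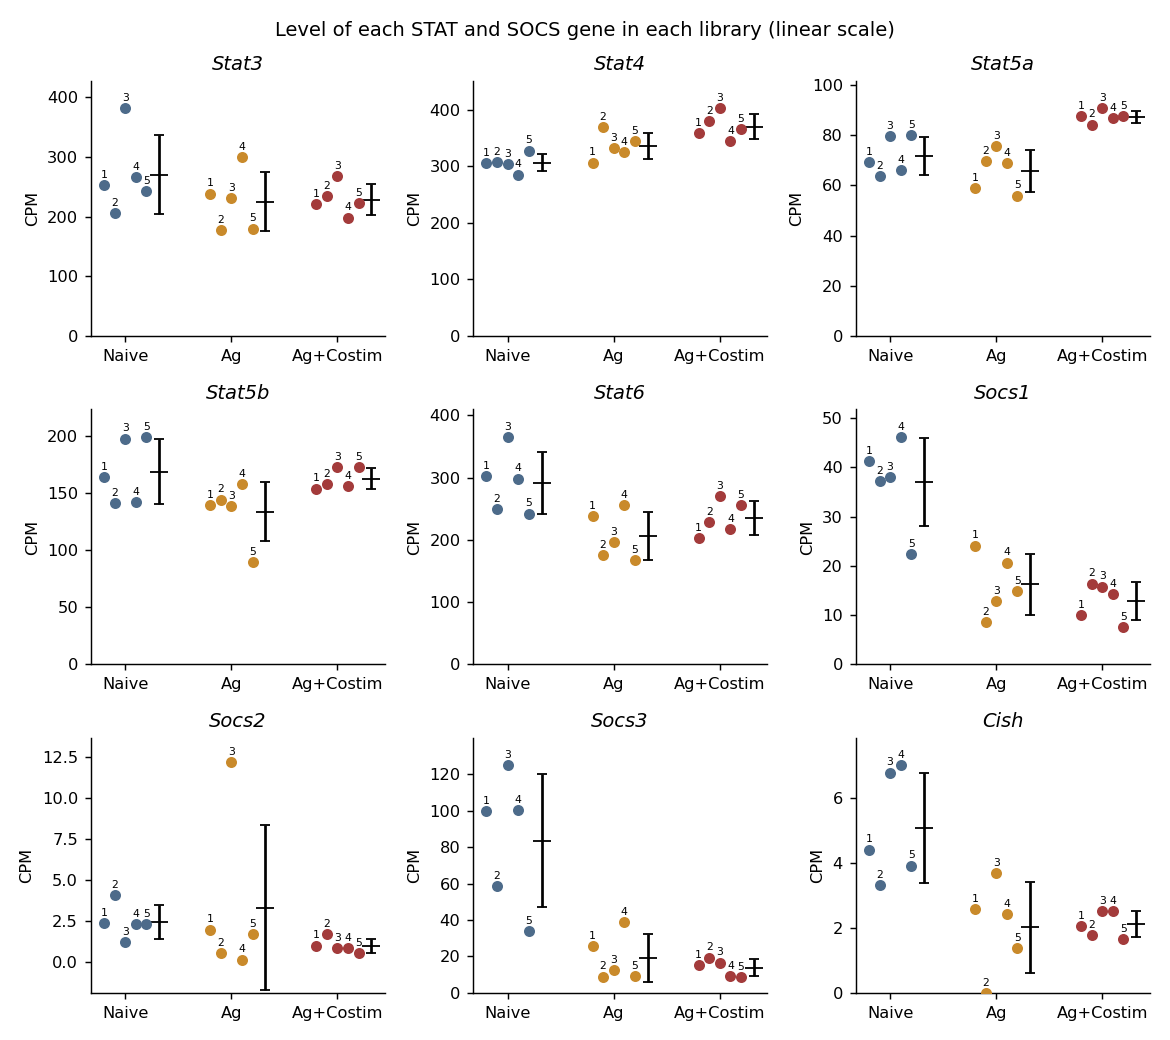
CPM (TMM-scaled, linear axis) of each of the 9 genes, 1 panel a gene, in Naive, Ag and Ag+Costim; each point is a library labelled with its replicate number, and the black mark is the group mean with its SD (n = 5). Socs1, Socs3 and Cish lie lower in Ag+Costim than in Naive without overlap, Stat5a lies higher in Ag+Costim than in either other group, and Ag 3 stands far above the other Ag libraries for Socs2.

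The clearest differences were in the inhibitors Socs3 and Socs1, which were lower in antigen-primed cells, with or without costimulation, than in Naive cells. Socs3, which binds the shared receptor chain of the IL-6 family and inhibits JAK kinases there, was at 99.6, 58.4, 125, 100.2 and 33.9 CPM in Naive 1 to 5, at 25.7, 8.96, 12.6, 38.9 and 9.39 CPM in Ag 1 to 5, and at 15.2, 19.4, 16.7, 9.41 and 8.76 CPM in Ag+Costim 1 to 5. Every Ag+Costim library lay below every Naive library, and Ag overlapped Naive through Ag 4 and Naive 5. The log2 fold change was -2.12 (SE 0.45, edgeR FDR 0.0176) for Ag vs Naive and -2.59 (SE 0.46, edgeR FDR 0.00297) for Ag+Costim vs Naive, so that mean levels fell to 0.230 and 0.166 of the Naive level. Ag+Costim and Ag did not differ beyond their spread, with a log2 fold change of -0.47 and a 95% interval from -1.41 to 0.47 (edgeR FDR 0.502). The order of the levels was therefore Naive, then Ag and Ag+Costim, which were not separated.

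Socs1, which blocks JAK kinases downstream of interferon and common gamma-chain cytokine receptors, followed the same order at a lower level. It was at 41.2, 37.1, 38.01, 46.2 and 22.3 CPM in Naive 1 to 5, at 24.1, 8.54, 12.8, 20.7 and 14.96 CPM in Ag 1 to 5, and at 10.1, 16.4, 15.8, 14.2 and 7.65 CPM in Ag+Costim 1 to 5. Naive 5 was the lowest Naive library for both genes, and Ag 1 was the Ag library that overlapped it for Socs1. Ag 1 and Ag 4 were the highest Ag libraries for both genes. Their total counts were 37.4% and 44.3% of sequenced reads, against 52.4% and 53.6% in Ag 2 and Ag 5. Ag 3, at 16.9%, lay below Ag 1 and Ag 4 for both genes, and any link was not tested. The log2 fold change was -1.18 (SE 0.29, edgeR FDR 0.0284) for Ag vs Naive and -1.53 (SE 0.29, edgeR FDR 0.00376) for Ag+Costim vs Naive, falling to 0.440 and 0.347 of the Naive level. Between Ag+Costim and Ag the log2 fold change was -0.34, with a 95% interval from -0.96 to 0.27 (edgeR FDR 0.451).

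The calls of Socs1 and Socs3 differed in how firmly they held. In Ag+Costim vs Naive both were called in all 22 alternative fits of each gene, with the sequencing lane as a term (edgeR FDR 0.0446 for Socs1 and 0.0365 for Socs3) and within lane 3 alone (0.0260 and 0.0232). In Ag vs Naive, which no lane holds together, both calls were lost with the lane as a term (edgeR FDR 0.612 for Socs1 and 0.541 for Socs3) and without Naive 1, Naive 3 or Naive 4 (FDR 0.0775, 0.0726 and 0.0860 for Socs1 and 0.0520, 0.0532 and 0.0506 for Socs3). Both were also lost with the libraries of the 2 groups fitted alone (FDR 0.133 and 0.125), and that of Socs1 without the filter on low counts (FDR 0.0856), without Ag 2 (FDR 0.0786) or without Ag 5 (FDR 0.0567). With the lane as a term no gene of the whole table was called in Ag vs Naive. With the 2 groups alone far fewer genes were called than in the main fit. Leaving out Naive 5 and Ag 3, the libraries of highest myeloid and B cell marker sums, kept both calls in Ag vs Naive, at -1.19 for Socs1 (FDR 0.0196) and -2.15 for Socs3 (FDR 0.00956). Over all 21 alternatives of each gene the Ag vs Naive log2 fold change stayed between -1.55 and -1.01 for Socs1 and between -3.03 and -1.85 for Socs3, and it was the lowest of these with the lane as a term.

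Cish, an inhibitor induced by STAT5 that binds the receptors using it, was lowly expressed. Its estimated counts were 69, 42, 182, 101 and 59 in Naive 1 to 5, 30, 0, 17, 34 and 22 in Ag 1 to 5, and 31, 22, 36, 39 and 24 in Ag+Costim 1 to 5. In CPM, Naive ranged from 3.31 to 7.02 and Ag+Costim from 1.67 to 2.53 without overlap, and the 0 counts in Ag 2 allow up to 0.207 CPM there. The log2 fold change of Ag+Costim vs Naive was -1.27 (SE 0.62, edgeR FDR 0.105), and that of Ag vs Naive -1.38 (SE 0.64, edgeR FDR 0.170), so neither was called. Fitted on the Ag+Costim and Naive libraries alone, Cish passed the threshold (edgeR FDR 0.00168), as it did within lane 3 (FDR 0.04996) and with voom and quality weights (limma FDR 0.000180).

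Socs2, which restrains growth hormone and some cytokine signals, had few counts and 1 library that stood apart. It was at 2.37, 4.10, 1.19, 2.29 and 2.33 CPM in Naive 1 to 5, at 1.98, 0.551, 12.2, 0.143 and 1.69 CPM in Ag 1 to 5, and at 0.994, 1.71, 0.843, 0.843 and 0.556 CPM in Ag+Costim 1 to 5. Ag 3, at 12.2 CPM from 56 counts, was the highest of all libraries and is the library with the high B cell and erythroid marker sums, whose part in this value was not tested. Ag 3 also had the lowest total count (4865952), at 16.9% of sequenced reads, and the most genes with a count (44408). Their part was not tested either. The sign of the Ag vs Naive log2 fold change rested on Ag 3: 0.36 (SE 0.80, edgeR FDR 0.781) with all libraries and -1.16 (edgeR FDR 0.198) without Ag 3. Ag+Costim vs Naive gave -1.30 with a 95% interval from -3.04 to 0.43 (edgeR FDR 0.190), and passed when the libraries of the 2 groups were fitted alone (FDR 0.00898), within lane 3 (FDR 0.0362) and with voom (limma FDR 0.0147).

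Several STAT proteins bind the letters TTCNNNGAA, the GAS motif, which read the same on either strand, so the promoters of the inhibitors were searched for it. RefSeq promoter windows on GRCm38.p6, from 250 bases before to 50 after each annotated start, were found for 8 of the 9 genes, all but Socs2. The motif lay in the windows of 2 of these, Socs3 and Cish, against 9.55% of all 27025 genes with a window. The stretches that hold it are shown because Socs3 and Cish are inhibitors whose transcripts are known to be induced by STAT proteins, and capitals mark the motif.
Socs3: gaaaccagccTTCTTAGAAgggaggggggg
Cish: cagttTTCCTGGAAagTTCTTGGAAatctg
The Socs3 stretch is on the minus strand at chr11:117969501-117969530, with the middle of its motif 150 bases before the start, and no annotated exon of Socs3 covers it. The Cish stretch is on the plus strand at chr9:107296654-107296683 and holds the motif at 2 places, centred 4 and 15 bases after the start, in an exon of Cish-201, 1 of 5 annotated transcripts. A match of these letters is a description of the sequence only, and no binding was measured here. No match in the other windows says only that these letters are not within them.

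Among the STAT genes, levels differed far less between groups, by at most 0.50 on the log2 scale in any comparison. Stat5a, 1 of the 2 closely related STAT5 proteins, was at 69.4, 63.7, 79.6, 66.0 and 80.1 CPM in Naive 1 to 5, at 58.8, 69.7, 75.8, 68.9 and 55.9 CPM in Ag 1 to 5, and at 87.7, 84.3, 90.7, 86.7 and 87.6 CPM in Ag+Costim 1 to 5. All 5 Ag+Costim libraries exceeded all Ag and all Naive libraries, and their SD was only 2.31 CPM around a mean of 87.4 CPM. The log2 fold change was 0.28 (SE 0.10, edgeR FDR 0.0387) for Ag+Costim vs Naive and 0.41 (SE 0.10, edgeR FDR 0.0807) for Ag+Costim vs Ag, the second not called although it was the larger. Ag vs Naive gave -0.13, with a 95% interval from -0.35 to 0.09 (edgeR FDR 0.405). The order was Ag+Costim above Naive and Ag, which were not separated. By CPM from library totals in place of TMM, the Ag+Costim libraries still exceeded all Ag libraries. Naive 3 (84.5 CPM) then lay above Ag+Costim 1, 2, 4 and 5 (80.5 to 83.9 CPM).

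Both Stat5a differences changed side with the fit. The Ag+Costim vs Ag difference was called without Ag 2 (edgeR FDR 0.0276), without Ag 5 (FDR 0.0291), without both Ag 3 and Naive 5 (FDR 0.0294), by DESeq2 (FDR 0.00270) and by voom with quality weights (limma FDR 0.000641). The Ag+Costim vs Naive call was lost in 11 of 22 alternatives. The difference was as large as over all libraries when taken within lane 3 (log2 fold change 0.28, edgeR FDR 0.159) and with the lane as a term (0.28, FDR 0.146), smaller with library totals in place of TMM (0.13, FDR 0.312) and larger with no filter on low counts (0.45, FDR 0.144). Without Ag+Costim 1, 2, 3 or 5 or without Naive 1, 2 or 4 it was 0.23 to 0.30 (FDR 0.0588 to 0.0954). The direction was the same in all 22 alternative fits of both comparisons.

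Stat5b, the other STAT5 gene, was the more abundant of the pair. It was at 164, 141, 197, 142 and 199 CPM in Naive 1 to 5, at 139, 144, 138, 157 and 89.3 CPM in Ag 1 to 5, and at 154, 158, 172, 156 and 173 CPM in Ag+Costim 1 to 5. The groups overlapped, with Ag 5 lowest, and no comparison was called, the log2 fold changes being -0.34 (95% interval -0.65 to -0.02, edgeR FDR 0.157) between Ag and Naive, 0.28 (-0.04 to 0.60, FDR 0.239) between Ag+Costim and Ag, and -0.05 (-0.37 to 0.26, FDR 0.774) between Ag+Costim and Naive. Per kilobase of merged exons, Stat5b exceeded Stat5a in every library, by a ratio of 2.77 to 3.20 in Naive, 2.06 to 3.05 among Ag libraries and 2.26 to 2.54 among Ag+Costim libraries. The ratios of Ag+Costim lay below those of Naive without overlap, and this ratio was described and not tested. Its size depends on the lengths used, as merged exons count 7133 bases for Stat5a where Stat5a-201 has 3888.

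Stat4, which drives interferon-gamma production after IL-12, was among the steadiest genes of the table within groups. It was at 306, 308, 305, 286 and 328 CPM in Naive 1 to 5, at 307, 369, 333, 326 and 345 CPM in Ag 1 to 5, and at 359, 379.6, 403, 345 and 366 CPM in Ag+Costim 1 to 5. All Ag+Costim libraries exceeded all Naive libraries, and Ag lay between with overlap of both. The spread of its log2 CPM within groups (SD 0.0855) was at the 0.0633 percentile of the 17366 genes tested. The log2 fold change was 0.27 (SE 0.09, edgeR FDR 0.0236) for Ag+Costim vs Naive, 0.13 (95% interval -0.05 to 0.32, edgeR FDR 0.306) between Ag and Naive, and 0.14 (-0.04 to 0.33, edgeR FDR 0.302) between Ag+Costim and Ag. The order was thus Naive, Ag and Ag+Costim, in which the ends differed and the neighbours were not separated. By CPM from library totals in place of TMM, Ag+Costim overlapped Naive, with Ag+Costim 4 (322.5 CPM) below Naive 1 (327.9 CPM).

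The Stat4 call was lost in 8 of 22 alternatives, with the same direction in each. These were the fits with library totals in place of TMM (log2 fold change 0.12, edgeR FDR 0.188), with the lane as a term (0.22, FDR 0.174), within lane 3, which holds 2 Ag+Costim libraries (0.22, FDR 0.183), with no filter on low counts (0.44, FDR 0.151), and without Ag+Costim 2 or 3 or without Naive 1 or 4 (FDR 0.0528 to 0.0643). Library totals shifted the all-gene median in this comparison by -0.15 on the log2 scale, and split the calls into 3016 higher and 5102 lower where TMM gave 3648 and 4107.

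Stat6, the transducer of IL-4, was lower on average in the primed groups. It was at 302, 249.8, 365, 298 and 242 CPM in Naive 1 to 5, at 238, 175, 196, 255 and 167 CPM in Ag 1 to 5, and at 202.9, 228, 271, 217 and 255 CPM in Ag+Costim 1 to 5. The groups overlapped in each comparison. The log2 fold change was -0.50 (SE 0.15, edgeR FDR 0.0592) for Ag vs Naive, just short of the threshold, and -0.31 (95% interval -0.63 to 0.01, edgeR FDR 0.0974) for Ag+Costim vs Naive. The Ag vs Naive difference passed with recorded sex as a term (edgeR FDR 0.0476), without Ag 1, Ag 4 or Naive 5 (FDR 0.0436, 0.0343 and 0.0234) and with DESeq2 (FDR 0.0167). The Ag+Costim vs Naive difference passed in 3 of 22 alternatives, with library totals in place of TMM (-0.47, edgeR FDR 0.04698), with the libraries of the 2 groups fitted alone (-0.37, FDR 0.0293) and with voom and quality weights (-0.37, limma FDR 0.00275).

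Stat3, which carries signals of the IL-6 and IL-10 families, showed no called difference. It was at 253, 206, 382, 266 and 244 CPM in Naive 1 to 5, at 239, 178, 231, 299.5 and 180.0 CPM in Ag 1 to 5, and at 221, 234, 268, 198 and 222 CPM in Ag+Costim 1 to 5. Naive 3, the most deeply counted library, was the highest, and the groups overlapped throughout. The 95% intervals of the log2 fold change ran from -0.64 to 0.11 between Ag and Naive, from -0.36 to 0.40 between Ag+Costim and Ag, and from -0.62 to 0.13 between Ag+Costim and Naive (edgeR FDR 0.316, 0.951 and 0.260).

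**Figure D2:**
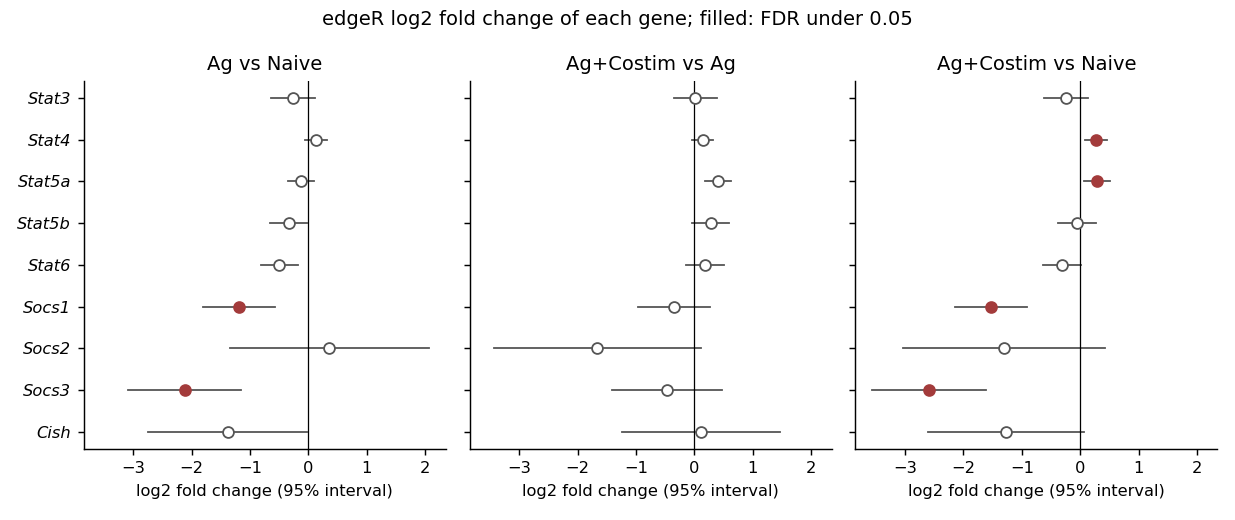
log2 fold change (x axis) of each of the 9 genes in the 3 comparisons, with its 95% interval from edgeR; filled points passed an FDR of 0.05. Socs1 and Socs3 are filled and left of 0 in Ag vs Naive and in Ag+Costim vs Naive, Stat4 and Stat5a are filled and right of 0 in Ag+Costim vs Naive, and no point is filled in Ag+Costim vs Ag.

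Counted over the 9 genes, Ag vs Naive called 0 higher and 2 lower, against 6.71% of all genes tested called in that comparison (3.05% higher and 3.66% lower). Of the 9, 5 had an unadjusted p under 0.05 there, against 28.7% of all genes, and none had CPM that did not overlap between the groups, against 3.85% of all genes (1.76% higher and 2.09% lower). Ag+Costim vs Naive called 2 higher (Stat4 and Stat5a) and 2 lower (Socs1 and Socs3), a share near the 44.7% of all genes called there (21.0% higher and 23.6% lower), and the same 4 had an unadjusted p under 0.05, against 55.7% of all genes. CPM did not overlap for 5 of the 9, 2 higher and 3 lower, against 45.0% of all genes (22.7% higher and 22.3% lower). In Ag+Costim vs Ag edgeR called 0 of the 9 where it called 0.0346% of all genes (0.0288% higher and 0.00576% lower), and 1, Stat5a, had an unadjusted p under 0.05, against 26.8% of all genes. DESeq2 called 1 and voom with quality weights 4, namely Stat4, Stat5a, Socs1 and Socs3. Both also called far more of all genes than edgeR in Ag+Costim vs Ag, as counted at the end. CPM of these groups did not overlap for 1 of the 9, Stat5a, against 6.33% of all genes (4.23% higher and 2.1% lower). The median log2 fold change of the 9 was -0.34, 0.11 and -0.31 in Ag vs Naive, Ag+Costim vs Ag and Ag+Costim vs Naive, beside 0.08, -0.10 and -0.08 over all genes. The comparisons of Ag and of Ag+Costim with Naive share the Naive libraries and are not independent of each other.

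The transcripts of the STAT genes were examined because the count of a gene hides which of its forms it holds. Nearly all Stat4 counts were assigned to Stat4-201 (chromosome 1, 52008243 to 52107184, plus strand, 24 exons). Its share was 91.8%, 95.5%, 91.4%, 95.5% and 97.6% in Naive 1 to 5, 96.8%, 96.5%, 95.5%, 97.7% and 99.1% in Ag 1 to 5, and 97.5%, 98.3%, 95.4%, 99.2% and 97.4% in Ag+Costim 1 to 5. The 2 lowest shares were in Naive 3 and Naive 1, and the groups overlapped. Means were 94.3% ± 2.68, 97.1% ± 1.37 and 97.6% ± 1.39 (SD, n = 5). By the exact permutation test, two-sided, Ag and Naive differed at p = 0.0714, Ag+Costim and Ag at p = 0.627, and Ag+Costim and Naive at p = 0.0794, or 0.119, 0.627 and 0.119 adjusted over the 3 tests, where 5 against 5 libraries allow no p below 0.00794. Without Naive 5 the adjusted exact permutation p was 0.0476 in both comparisons with Naive.

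The rest of Stat4 was split between Stat4-202 and a retained-intron transcript. Stat4-202 (51987148 to 52107189, 25 exons) starts further upstream, with first exons of 73 and 88 bases in place of the 486-base first exon of Stat4-201, and has the same 2244 coding bases. It held 5.74% of the gene in Naive 3 (469 counts) and no count in Naive 5, Ag 1, Ag 5, Ag+Costim 2 and Ag+Costim 4. The retained-intron transcript held 3.53% ± 1.54 of Naive counts, 1.89% ± 0.819 of those of Ag and 1.36% ± 0.339 of those of Ag+Costim. The usage test of edgeR, in which 3 Stat4 transcripts were tested, gave a Simes FDR of 1.00 in each comparison.

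Of the 6 genes with at least 2 tested transcripts, Stat5a was the 1 with a called difference in usage, and its shares did not grade between libraries but switched. Stat5a-201 (chromosome 11, 100859351 to 100885169, plus strand, 20 exons) held 85.9% to 93.7% of Stat5a counts in all 5 Naive libraries and in Ag 1, Ag 3, Ag 4 and Ag+Costim 5. In each of these 9 libraries Stat5a-203 (100860484 to 100885168, 18 exons) had no count, which allows a share of up to 0.141% (Naive 3) to 0.862% (Ag 3). In Ag 2, Ag 5 and Ag+Costim 1 to 4 the shares of Stat5a-203 were 90.3%, 90.0%, 92.8%, 93.2%, 88.5% and 90.4%, and those of Stat5a-201 lay between 5.01% and 9.68%. No library held an intermediate mixture of the pair. The libraries of Stat5a-203 had total counts at 51.9% to 53.6% of sequenced reads. Those of Stat5a-201 were at 16.9% to 46.8%, except for Ag+Costim 5 at 52.4%. The switch thus ran nearly along this library difference, whose part in it was not tested. The Simes FDR of edgeR was 0.00913 for Ag vs Naive and 0.00496 for Ag+Costim vs Naive, where 1.31% and 2.2% of the 7501 genes tested were called, and 1.00 for Ag+Costim vs Ag, where 1.75% were called. Both calls were lost when the libraries of the 2 groups were fitted alone, neither was made by limma's test on voom values, and on simulated data this usage test called more unchanged genes than its nominal rate.

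Stat5a-203 has no exonic base that Stat5a-201 lacks, so only what is missing tells them apart. Stat5a-201 alone has a 230-base untranslated first exon (chr11:100859351-100859580) and a 52-base coding exon (chr11:100881738-100881789), whose absence changes the annotated reading frame, so that Stat5a-203 codes over 64 bases that are not coding in Stat5a-201. The annotated sequences across this exon (GENCODE M21 transcripts, GRCm38, plus strand) are shown because reads over them separate the forms. Capitals mark the first 15 bases of the extra exon in Stat5a-201 and the 4 bases around the joined ends in Stat5a-203.
Stat5a-201: acactcctgtacttgCGAAAGCAGTTGACG
Stat5a-203: acactcctgtactTGGTtcgtcaatgcatc
Reads were not used here, so which of these letters the libraries held was not examined, and counts of transcripts that share nearly all bases are estimates.

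Stat3 counts were divided about evenly between Stat3-201 (chromosome 11, 100888236 to 100939380, minus strand) and Stat3-202 (100885098 to 100939404). The share of Stat3-202 was 53.2%, 40.5%, 48.3%, 50.3% and 50.03% in Naive 1 to 5, 56.8%, 53.1%, 49.1%, 59.1% and 45.5% in Ag 1 to 5, and 43.9%, 42.7%, 47.8%, 41.6% and 43.4% in Ag+Costim 1 to 5. Ag+Costim had the narrowest range and the lowest mean, 43.9% ± 2.34 against 52.7% ± 5.54 in Ag and 48.5% ± 4.78 in Naive, with overlap. The usage test did not call Stat3 (Simes FDR 1.00 against Naive in Ag and 0.504 in Ag+Costim, and 1.00 between Ag+Costim and Ag).

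The pair differs in coding and in untranslated sequence. Stat3-202 skips 50 coding bases (chr11:100889541-100889590) and so codes for the shorter Stat3 form known as Stat3 beta, which lacks the end of the activation domain, and it alone holds 3138 bases of 3′ untranslated sequence (chr11:100885098-100888235). Its share therefore mixes the reading of the 50 bases with that of the long untranslated end. The annotated sequences at the start of the 50 bases (GENCODE M21 transcripts, GRCm38, minus strand) are given with the first 15 of them in capitals in Stat3-201 and the 4 bases around the joined ends in capitals in Stat3-202.
Stat3-201: catctgtgtgacaccAACGACCTGCAGCAA
Stat3-202: catctgtgtgacaCCATtcattgatgcagt
The last exons of Stat3 and Stat5a overlap tail to tail by 72 bases (chr11:100885098-100885169), 0.756% of the exonic bases of Stat3 and 1.01% of those of Stat5a, and reads in them cannot be assigned to a strand with an unstranded kit.

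The usage test of edgeR called none of the remaining genes, although some shares varied widely between libraries. Socs1-201, with the same coding bases as Socs1-202, held 0% to 100% of Socs1 counts in Ag and 0% to 98.7% in Ag+Costim. In Naive it held 52.9% to 72.3%. Cish-201 ran from 0% to 100% of the few Cish counts in Ag and in Ag+Costim. Stat5b-202, with another first exon and the same coding bases as Stat5b-201, held 40.6% of Stat5b counts in Ag 4, 28.5% in Naive 4, 22.9% in Naive 3 and 15.3% in Ag 5, and at most 6.20% in every other library. The Simes FDR of Stat5b was 1.00, 0.696 and 0.489 in Ag vs Naive, Ag+Costim vs Ag and Ag+Costim vs Naive. Stat6-201 held 99.4% to 99.9% of Stat6 counts and Socs3-201 98.6% to 100% of Socs3 counts, so neither had a second transcript to test. Stat4 shares 1033 exonic bases with Gm28177 on the same strand, which had at most 65 counts in a library, and Stat6 shares 40 bases with Nab2 on the other strand.

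**Figure D3:**
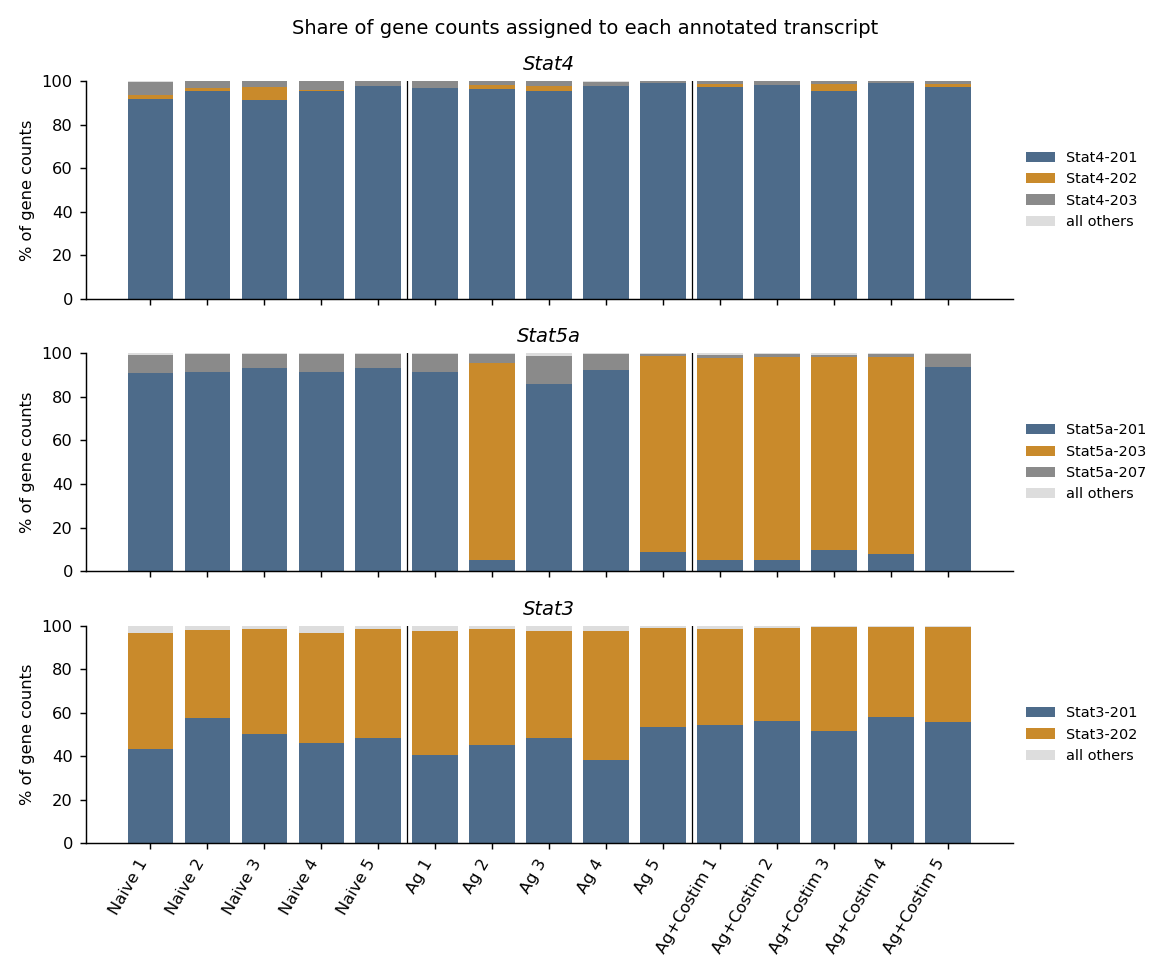
Percent of the counts of Stat4 (top), Stat5a (middle) and Stat3 (bottom) assigned to each annotated transcript in each of the 15 libraries, as stacked bars from 0 to 100%. Stat4-201 fills nearly every Stat4 bar, Stat5a bars are either nearly all Stat5a-201 or nearly all Stat5a-203, and Stat3 bars are split between Stat3-201 and Stat3-202.

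Receptors that feed the STAT proteins included called genes in both directions. Of 18 genes for chains of receptors that signal through JAK kinases, 1 rose and 4 fell in Ag vs Naive, and 4 rose and 9 fell in Ag+Costim vs Naive, with medians of -0.27 and -0.35 on the log2 scale beside 0.08 and -0.08 over all genes. Over all genes tested, 3.05% were called higher and 3.66% lower in Ag vs Naive, and 21.0% higher and 23.6% lower in Ag+Costim vs Naive. The Ag vs Naive calls of the pathway lists as a whole, 12 genes, went to 0 with the lane as a term and with the libraries of the 2 groups fitted alone. Il7r, the IL-7 receptor that keeps resting T cells alive, fell from 593 CPM in Naive to 149 in Ag and 83.9 in Ag+Costim (log2 fold change -1.996 and -2.82, edgeR FDR 0.00874 and 0.000954). Ifngr2, the signalling chain of the interferon-gamma receptor, fell from 37.5 CPM to 7.13 and 1.67 (-2.42 and -4.48, FDR 0.0135 and 0.000590). Il2rb, the receptor chain that carries IL-2 and IL-15 signals to STAT5, rose from 562 CPM to 961 and 1278 (0.77 and 1.19, FDR 0.0452 and 0.00334).

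Further receptor chains moved in both directions. Il4ra, the IL-4 receptor upstream of Stat6, fell in Ag and in Ag+Costim against Naive (-1.52 and -1.67, edgeR FDR 0.0126 and 0.00268), with no overlap of libraries in either. Il6ra, the IL-6 receptor upstream of Stat3, fell in Ag+Costim vs Naive (-3.28, FDR 0.00327) and was at -1.85 in Ag vs Naive (FDR 0.0598). Il12rb1, which pairs in the IL-12 receptor upstream of Stat4, and Il2ra, the high-affinity IL-2 receptor chain, rose in Ag+Costim vs Naive (1.40 and 1.903, FDR 0.0216 and 0.0436). Between Ag+Costim and Ag edgeR called 0 of the 18, with 4 at an unadjusted p under 0.05, against 26.8% of all genes. The lowest p were those of Ifngr2 (-2.06, FDR 0.0807) and Il6ra (-1.42, FDR 0.130).

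Within the cell, Jak1 was the 1 of 4 JAK kinases called, in Ag+Costim vs Naive (log2 fold change -0.53, edgeR FDR 0.0126), and was at -0.48 in Ag vs Naive (FDR 0.0505). Stat2, which acts in type I interferon signalling, was not called in any comparison and was at -0.61 in Ag+Costim vs Naive (FDR 0.0725). Of Socs4, Socs5, Socs6 and Socs7, Socs5 fell from 11.9 CPM in Naive to 2.30 in Ag+Costim (-2.36, FDR 0.00759). Of 9 genes of further inhibitors, Pias1, a ligase that restrains STAT binding to DNA, fell in Ag and in Ag+Costim against Naive (-0.55 and -0.49, FDR 0.0476 and 0.0230). Ptpn11, a tyrosine phosphatase of receptor signalling, rose in both (0.77 and 0.53, FDR 0.0368 and 0.0431), and the adaptor Sh2b3 fell in Ag+Costim vs Naive (-0.75, FDR 0.0327).

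Genes known as STAT5 targets held called genes in both directions in Ag+Costim vs Naive. Of 13, 0 rose and 3 fell in Ag vs Naive, and 2 rose and 6 fell in Ag+Costim vs Naive, with medians of -0.13 and -0.52 on the log2 scale. The share called of all genes was 6.71% in Ag vs Naive (3.66% lower) and 44.7% in Ag+Costim vs Naive (21.0% higher and 23.6% lower). Bcl2, a survival protein, fell from 298 CPM in Naive to 71.5 in Ag and 36.3 in Ag+Costim (-2.06 and -3.04, edgeR FDR 0.0145 and 0.00130). The kinase Pim1 fell in both (-1.28 and -0.91, FDR 0.0362 and 0.0379), as did Myc, a transcription factor of growth (-1.04 and -0.52, FDR 0.00781 and 0.0264). Pim2 and the cyclin Ccnd2 fell in Ag+Costim vs Naive (-1.28 and -1.18, FDR 0.00892 and 0.0230). Ccnd3 and Il2ra rose in Ag+Costim vs Naive (0.55 and 1.903, FDR 0.0413 and 0.0436). Between Ag+Costim and Ag edgeR called none of the 13, with 4 at an unadjusted p under 0.05, against 26.8% of all genes. Myc was higher in every Ag+Costim library than in any Ag library (0.52, FDR 0.0903).

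STAT4 targets were a short list. Of 7 listed, 6 passed the filter on low counts, all but Hlx. Of these, 2 rose and 0 fell in Ag vs Naive, and 4 rose and 1 fell in Ag+Costim vs Naive, with medians of 0.56 and 1.19, where 3.05% and 21.0% of all genes were called higher. The difference between the STAT4 and STAT5 lists was not tested. Ifng, the cytokine interferon-gamma, rose from 2.25 CPM in Naive to 8.79 in Ag and 5.91 in Ag+Costim (1.98 and 1.40, edgeR FDR 0.0222 and 0.0244). Tbx21, the transcription factor T-bet, rose in Ag+Costim vs Naive from 109 to 352 CPM (1.68, FDR 0.0161). Il18r1, a chain of the IL-18 receptor, rose in both (0.62 and 0.64, FDR 0.0215 and 0.00663), its partner chain Il18rap rose in Ag+Costim vs Naive (0.98, FDR 0.0186), and Furin, a protease, fell there (-0.69, FDR 0.0368).

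Over all lists without repeats, 4 genes rose and 8 fell in Ag vs Naive, where 6.71% of all genes were called, and 10 rose and 20 fell in Ag+Costim vs Naive, where 44.7% were. With the lane as a term these 30 calls became 6, and calls over all genes fell as well. In Ag+Costim vs Ag edgeR called 0, DESeq2 6 and voom with quality weights 32. DESeq2 and voom also called far more of all genes than edgeR there, as counted at the end. The lists rest on textbook targets, and no activity of a STAT protein was measured.

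**Figure D4:**
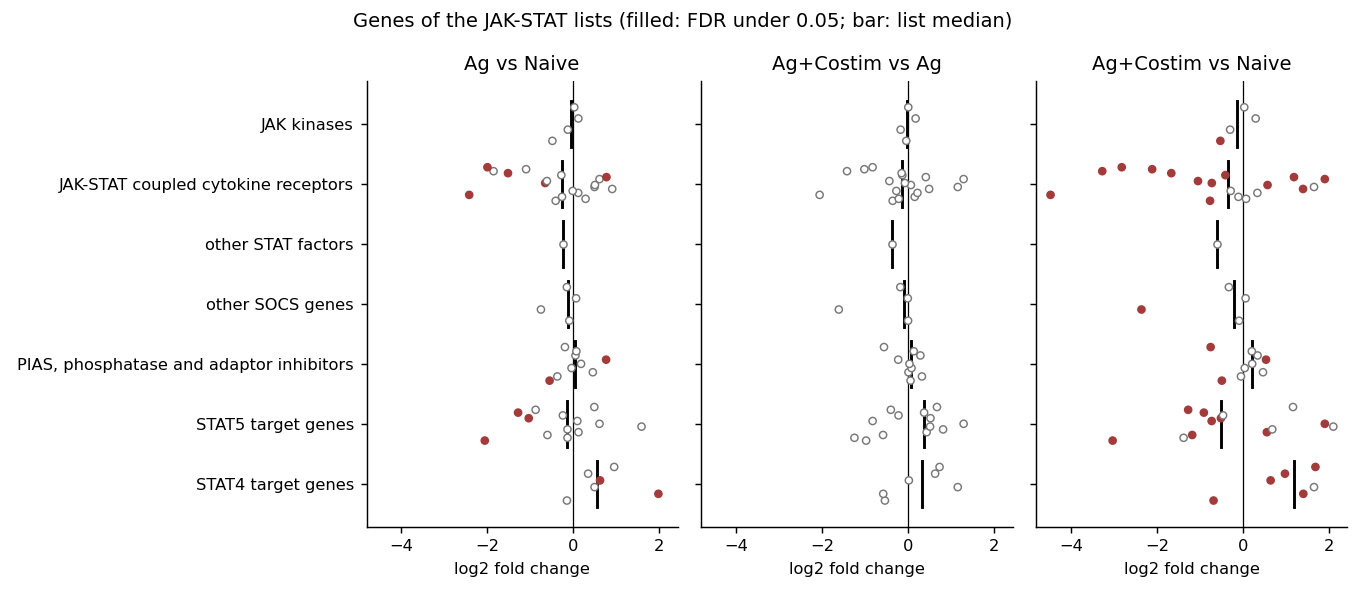
log2 fold change (x axis) of each gene in 7 lists of the JAK-STAT pathway (rows) in the 3 comparisons; each point is a gene, filled where edgeR's FDR was under 0.05, and the black bar is the list median. Filled points lie on both sides of 0 for the receptors, mostly right of 0 for STAT4 targets and mostly left of 0 for the STAT5 targets in Ag+Costim vs Naive, and none are filled in Ag+Costim vs Ag.

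Genes whose centred log2 CPM ran closest to that of each gene over the 15 libraries were named by the root mean square difference, as a description. Stat4 was closest to Polr3c and Fbxo7 (0.0868 and 0.0898), Stat5a to Nsf and Ganab (0.0905 and 0.0917), Stat5b to Msn and Matr3 (0.112 and 0.124), Stat3 to Glg1 and Rbsn (0.112 and 0.117) and Stat6 to D230025D16Rik and Ppp1r10 (0.104 and 0.108). Socs1 was closest to Tgtp2 and Tgtp1 (0.223 and 0.241), interferon-induced GTPases that are near copies of each other and so uncertain, and Socs3 to Apol7b and Satb1 (0.315 and 0.318). The low genes had no close likeness, with Slc25a23 and Gm9917 at 0.549 and 0.586 from Cish and Nhsl2 and Ptprk at 0.810 and 0.829 from Socs2. The Socs1 and Socs3 differences are small beside the spread of these genes over the libraries (SD 0.795 and 1.31), and those of the STAT genes less so (SD 0.135 for Stat4 and 0.214 for Stat5a).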

How the data were processed

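Poly(A) RNA was amplified with SMART-Seq v4 and Nextera XT and sequenced as single reads of 50 bases per the labels. The authors aligned reads with HISAT2 2.1.0 to mm10 and estimated transcript abundance with StringTie 2.1.0, and the deposited tables hold the resulting estimated counts per gene and per transcript, as whole numbers and not normalised. Of 81881 gene entries, 55536 matched GENCODE M21 (GRCm38). A further 26248, named by a number alone, held 0.0818% of counts and were left out with 97 spike-in entries. Total counts per library were 4865952 to 25280667, and intervals and floors of 3 counts cover counting error only, as the reads carried no molecular identifiers.

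The main test was that of edgeR 4.0.16, run in R 4.3.3. Genes kept by filterByExpr (17366) were scaled by TMM and fitted with 1 coefficient per group over 15 libraries by robust quasi-likelihood. Tests were two-sided, with Benjamini-Hochberg adjustment over all genes and an FDR threshold of 0.05. Transcript usage was tested with diffSpliceDGE and Simes adjustment on 25932 transcripts, belonging to 7501 genes that each had 2 or more. Mean shares of Stat4-201, the 1 transcript with at least 5% of Stat4, were compared by exact permutation. Scripts were tested on simulated data, where the usage test called more unchanged genes than its nominal rate. DESeq2 1.42.0 and limma 3.58.1 served as alternatives. The deposited FPKM table was not used. Replicate numbers were not used to pair the samples in the main test. The 9 genes and all lists were chosen with earlier results of these data known. A further pathway gene and a list of targets are not reported here. In each list and comparison, at most the 3 highest and 3 lowest called genes were named, or the 2 with the lowest p where none was called, and the 2 genes most like each of the 9 among those of at least 5 CPM (log2 CPM with a prior count of 2).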

Additional observations from a re-analysis of the deposited data

Results flagged for a closer look

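In each group of 5 libraries, the highest and lowest CPM of each gene was compared with the rest by Dixon's ratio, which chance passes in about 1 in 20 groups. Over all values compared in this way, the CPM of each gene among them, 30 groups of 5 were examined. Of these, 2 held such a library, both by CPM. Socs2 was at 12.2 CPM in Ag 3, with a gap to the next library of 0.848 of the whole range of the Ag group. Stat5b was at 89.3 CPM in Ag 5, with a gap of 0.720 of the range. Ag 3 is also the library of highest B cell and erythroid marker sums, whose part in its Socs2 value was not tested. The same holds for its total count, the lowest of all, at 16.9% of sequenced reads.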

How the results depend on the processing

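Calls of Socs1 and Socs3 in Ag+Costim vs Naive held in all 22 alternatives of each. Counts of calls otherwise moved widely, and the cause was not tested. In Ag vs Naive (1165 genes, 2 of the 9 and 12 pathway genes called), no filter on low counts gave 208, 1 and 6, lane as a term 0, 0 and 0, and the 2 groups alone 6, 0 and 0. Leaving out Ag 3 and Naive 5 together (chosen after seeing the data) gave 3945 genes, DESeq2 2633 and voom 3473. In Ag+Costim vs Ag (6, 0 and 0), no filter gave 3 genes, lane 0, sex 2, the 2 groups alone 0, within lane 2 0, and TMM on totals of all matched genes 33. Leaving out Ag 3 and Naive 5 gave 989 genes, 1 of the 9 and 4 pathway genes, DESeq2 5421, 1 and 6, and voom 9969, 4 and 32. In Ag+Costim vs Naive (7755, 4 and 30), no filter gave 4158, 2 and 16, lane 943, 2 and 6, voom 13638 genes and 7 of the 9, and the 2 groups alone 7 of the 9. The usage call of Stat5a went to 0 in Ag vs Naive with the 2 groups alone and with limma, and in Ag+Costim vs Naive to 0 with the 2 groups alone, while limma there called Stat5b instead.

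Leaving out 1 library gave, for Ag vs Naive, Ag+Costim vs Ag and Ag+Costim vs Naive in turn, 255 to 3871, 0 to 3573 and 3892 to 9164 genes, 0 to 3, 0 to 1 and 2 to 4 of the 9, 5 to 19, 0 to 7 and 14 to 35 pathway genes, and 2.04 to 3.60, 0.0266 to 0.970 and 2.48 to 4.04 percentage points of Stat4-201 share. The extremes in genes were without Naive 1 (255) and Naive 5 (3871) in Ag vs Naive, without Ag 5 (3573) and without Ag 1 or Ag+Costim 2, 3, 4 or 5 (0 each) in Ag+Costim vs Ag, and without Naive 4 (3892) and Naive 5 (9164) in Ag+Costim vs Naive.

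Same-numbered pairs correlated at -0.324 to 0.470 in their deviations from group means, with 5 of 15 over 0.1. Of the 15 libraries, 6 correlated best with their own number. Recorded sex was the same for each replicate number in all 3 groups. These values do not settle whether replicate numbers pair the libraries. With the replicate block, genes called were 1660, 0 and 7833, members called 2, 0 and 4, the Stat5a usage call went to 0 in Ag vs Naive, and Socs2 in Ag vs Naive was at -0.38.

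Signs turned only for values that were not called. Socs2 in Ag vs Naive (0.36) was -0.10 with no filter, -0.38 with lane, -1.11 without Ag 3 and Naive 5, -1.59 with voom, and -1.16 (without Ag 3) to 0.69 leaving out 1 library, and in Ag+Costim vs Ag (-1.67) it was 0.42 with voom. Stat3 in Ag+Costim vs Ag (0.02) was -0.074 with library totals, -0.15 with voom, and -0.044 (without Ag 5) to 0.16 leaving out 1 library, and Cish there (0.11) ranged from -0.089 (without Ag 2) to 0.42. Stat5b in Ag+Costim vs Naive (-0.05) was 0.10 with no filter, 0.090 without Ag 3 and Naive 5, 0.0021 with TMM on all totals, 0.048 with voom, and -0.13 to 0.054 (without Ag+Costim 4) leaving out 1 library. Depth limits Socs2 and Cish most, with 2 to 56 and 0 to 182 counts per library.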
